A study of Mus musculus with 7 samples.

Results

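This account follows 34 genes of glycolysis and the response to low oxygen across 7 mouse samples, each measured on 1 one-colour microarray. The genes were taken from a list of names that was drawn up with earlier results of these data known, although its rule sets no threshold on a measured value. All 34 listed genes had a named probe, out of 17047 genes with one, and all 34 were well above background on all 7 arrays. They were covered by 49 probes, with several probes for 10 genes and a single probe for 24, and each gene is given by its brightest probe unless another is named. A level here is the log2 signal minus the 75th percentile of its array, and a difference is one level minus another, so that 1 stands for 2-fold.

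Glycolysis splits glucose into pyruvate in the cytosol and yields ATP without oxygen, and lactate dehydrogenase then turns pyruvate into lactate. When oxygen falls, the prolyl hydroxylases that mark the alpha subunits of the hypoxia-inducible factors for destruction lose activity, and the stabilised factors switch on glucose transporters, glycolytic enzymes, the angiogenic ligand Vegfa and the hydroxylases themselves. The gastric mucosa is a tissue of high oxidative demand, since the acid-secreting parietal cells are packed with mitochondria.

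Stomach-type tissue grown from mouse embryonic stem (ES) cells was sampled at day 42 and at day 46. The tissues were 4 organs of adult ICR mice (stomach, intestine, esophagus and lung) and the stomach primordium of ICR embryos at embryonic day 9.5 (E9.5). The protocol gives a DMEM/F12 medium with N2/B27 and 50 ng/mL EGF, which is read here as the base of both cultures. The day 42 culture also received FGF10, Wnt3a and Noggin, where the 100 ng/mL stated is read as applying to each, and R-spondin1 at 250 ng/mL, whereas the day 46 culture spent its last 4 days with 100 ng/mL Shh and 10 ng/mL Bmp4. Genotype, the name of the ES cell line, the exact age of the adult animals, the oxygen level of the cultures and any pooling of animals are not given in the sources used here. The series text also names a 5-month culture, which was not analysed here.

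Every group held 1 array, so there are no replicates, no test and no p-value, and with so few arrays precision is limited throughout. The adult organs shared 1 slide and 1 scan, but the cultures and the embryo each had a separate slide, and for those 3 arrays slide and sample cannot be told apart. The median standard deviation of probes with 10 spots was 0.06 to 0.10 per array, and different probes of 1 gene disagreed in a difference between arrays by a standard deviation of 0.51 (day 46 against day 42) to 0.89 (day 42 against embryonic stomach). At day 46, 82.7% of probes were well above background, against 66.1% to 75.4% on the other arrays. Before scaling, the 10 spike-in probes on the day 46 array lay below the other arrays, with a median log2 difference of -2.93. On the day 42 array they lay above the others, with a median log2 difference of 1.11. Each adult organ held the markers of its own epithelium, with a summed level of 10.42 for the parietal list in adult stomach, 11.33 for the enterocyte list in intestine, 10.79 for the surfactant and airway list in lung and 10.03 for the squamous list in esophagus. The squamous list also stood at 9.90 in adult stomach, which in mice includes a squamous forestomach. The surfactant and airway list also stood at 6.33 in esophagus and 3.03 in adult stomach, with all 4 genes above background in each. A summed level is the log2 of the signals of a list added together, so the brightest gene can dominate it. Of 6 stomach lining genes (Tff1, Tff2, Gkn1, Gkn2, Muc5ac and Pgc), 5 were above background at day 42, 6 at day 46 and 2 in the embryonic stomach. All 6 were at least 2-fold below adult stomach at both times (22.6% and 22.1% of all genes were). Their summed level was 5.14 at day 42 and 7.81 at day 46, against 11.91 in adult stomach. From day 42 to day 46, 4 of the 6 rose at least 2-fold (9.00% of all genes). The other 2, Tff2 and Pgc, fell at least 2-fold (6.47%). In tissue samples such as these, fewer cells of a type and less RNA per cell cannot be told apart.

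Hypoxia-inducible factors bind a short core, ACGTG or GCGTG, so the 250 bases before each gene's start were searched for both motifs on both strands. RefSeq promoters of build GRCm38.p6 were matched by symbol for 32 of the 34 genes. The motif was present in at least 1 promoter of 29 of those 32 (90.6%), against 51.7% of 13610 genes with a named probe. Counted per promoter, it was present in 37 of 46 (80.4%) against 47.5%. The median GC content was 61.0% for the promoters of the 34 genes and 57.2% for those of all genes with a named probe, and the part of base composition in these shares was not tested. Among the 12 genes at least 2-fold above all 5 tissues in both cultures (named below in order), 10 of 11 with a promoter sequence held the motif. The exception was Eno2. Among the others of the 34 genes, 19 of 21 with a promoter sequence held it. The 6 promoters shown belong to the genes with the largest excess in both cultures over all 5 tissues among genes with a promoter sequence. Each is printed 5′ to 3′ on the gene's strand, with the motif or its reverse complement in capitals, and where matches overlap the capitals run together. They are P4ha2 at chr11:54100674-54100923 (plus strand), P4ha1 at chr10:59323046-59323295 (plus strand), Ddit4 at chr10:59951771-59952020 (minus strand), Ankrd37 at chr8:45999851-46000100 (minus strand), Egln3 at chr12:54203875-54204124 (minus strand) and Adm at chr7:110627407-110627656 (plus strand). A match is a stretch of letters and says nothing of binding in these samples.
P4ha2: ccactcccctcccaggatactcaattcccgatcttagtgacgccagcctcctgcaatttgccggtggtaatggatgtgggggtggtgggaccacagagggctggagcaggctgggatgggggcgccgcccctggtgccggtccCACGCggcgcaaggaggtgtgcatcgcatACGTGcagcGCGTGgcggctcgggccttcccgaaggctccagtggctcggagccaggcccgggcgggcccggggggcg
P4ha1: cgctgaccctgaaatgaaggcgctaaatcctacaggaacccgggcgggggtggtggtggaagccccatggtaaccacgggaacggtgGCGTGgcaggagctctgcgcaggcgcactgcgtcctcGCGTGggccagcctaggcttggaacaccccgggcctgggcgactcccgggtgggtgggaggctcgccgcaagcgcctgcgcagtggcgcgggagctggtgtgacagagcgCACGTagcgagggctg
Ddit4: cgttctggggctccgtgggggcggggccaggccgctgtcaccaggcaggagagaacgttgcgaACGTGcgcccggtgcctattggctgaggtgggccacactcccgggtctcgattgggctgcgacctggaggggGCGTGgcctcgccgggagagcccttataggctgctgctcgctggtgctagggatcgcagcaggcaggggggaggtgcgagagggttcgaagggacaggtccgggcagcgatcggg
Ankrd37: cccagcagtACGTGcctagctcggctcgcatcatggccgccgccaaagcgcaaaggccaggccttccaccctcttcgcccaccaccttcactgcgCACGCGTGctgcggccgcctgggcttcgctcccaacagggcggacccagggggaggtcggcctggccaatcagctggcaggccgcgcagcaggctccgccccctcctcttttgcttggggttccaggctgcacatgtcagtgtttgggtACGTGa
Egln3: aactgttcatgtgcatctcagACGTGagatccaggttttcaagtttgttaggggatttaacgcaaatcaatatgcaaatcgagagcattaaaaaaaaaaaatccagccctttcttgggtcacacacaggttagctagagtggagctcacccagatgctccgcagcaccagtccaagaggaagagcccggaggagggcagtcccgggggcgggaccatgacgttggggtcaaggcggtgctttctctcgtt
Adm: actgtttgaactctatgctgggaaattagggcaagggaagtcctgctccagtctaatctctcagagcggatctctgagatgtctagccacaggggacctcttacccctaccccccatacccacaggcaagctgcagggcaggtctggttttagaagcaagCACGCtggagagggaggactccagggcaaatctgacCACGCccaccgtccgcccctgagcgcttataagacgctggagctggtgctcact
The count of matches was 3 in P4ha2, 3 in P4ha1, 2 in Ddit4, 4 in Ankrd37, 1 in Egln3 and 2 in Adm.

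Across the 7 arrays the ES-derived cultures held the highest levels of most of these genes. The highest array was a culture for 25 of the 34 genes against 22.6% of the 11798 genes above background on all arrays. Day 42 was highest for 16 (14.1% of all genes) and day 46 for 9 (8.55%), while embryonic stomach was highest for 4 (30.1%), esophagus for 3 (8.20%) and adult stomach for 2 (9.64%). Lung was lowest for 19 (16.2%) and embryonic stomach for 8 (24.3%). Both cultures lay at least 2-fold above the highest of the 5 tissues for 12 of the 34 genes, against 2.38% of 15873 genes, at least 4-fold above it for 8, against 0.788%, and above it by any amount for 21, against 10.0%. None of the 34 was at least 2-fold below the lowest tissue in both cultures, against 1.78% of all genes. In order of the excess of the lower culture over the highest tissue, the 12 genes were P4ha2 (17.7-fold), P4ha1 (12.6-fold), Ddit4 (9.78-fold), Ankrd37 (6.06-fold), Ndrg1 (5.82-fold), Egln3 (5.41-fold), Adm (4.47-fold), Eno2 (4.46-fold), Aldoc (3.66-fold), Bnip3 (2.82-fold), Slc2a1 (2.63-fold) and Hk2 (2.22-fold). Of these, 8 belong to the 12 hypoxia response genes and 4 to the 22 genes of glycolysis, glucose and lactate transport and pyruvate use. These classes are not exclusive, since the hypoxia-inducible factors also switch on glucose transporters and glycolytic enzymes. Just short of 2-fold were the regulatory enzyme Pfkfb3 (1.97-fold by its brightest probe, with another probe placing tissues highest) and the lactate exporter Slc16a3 (1.91-fold). With quantile normalization 15 genes passed, Hk2 left and Gpi1, Pfkl, Pfkfb3 and Slc16a3 joined.

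**Figure D1:**
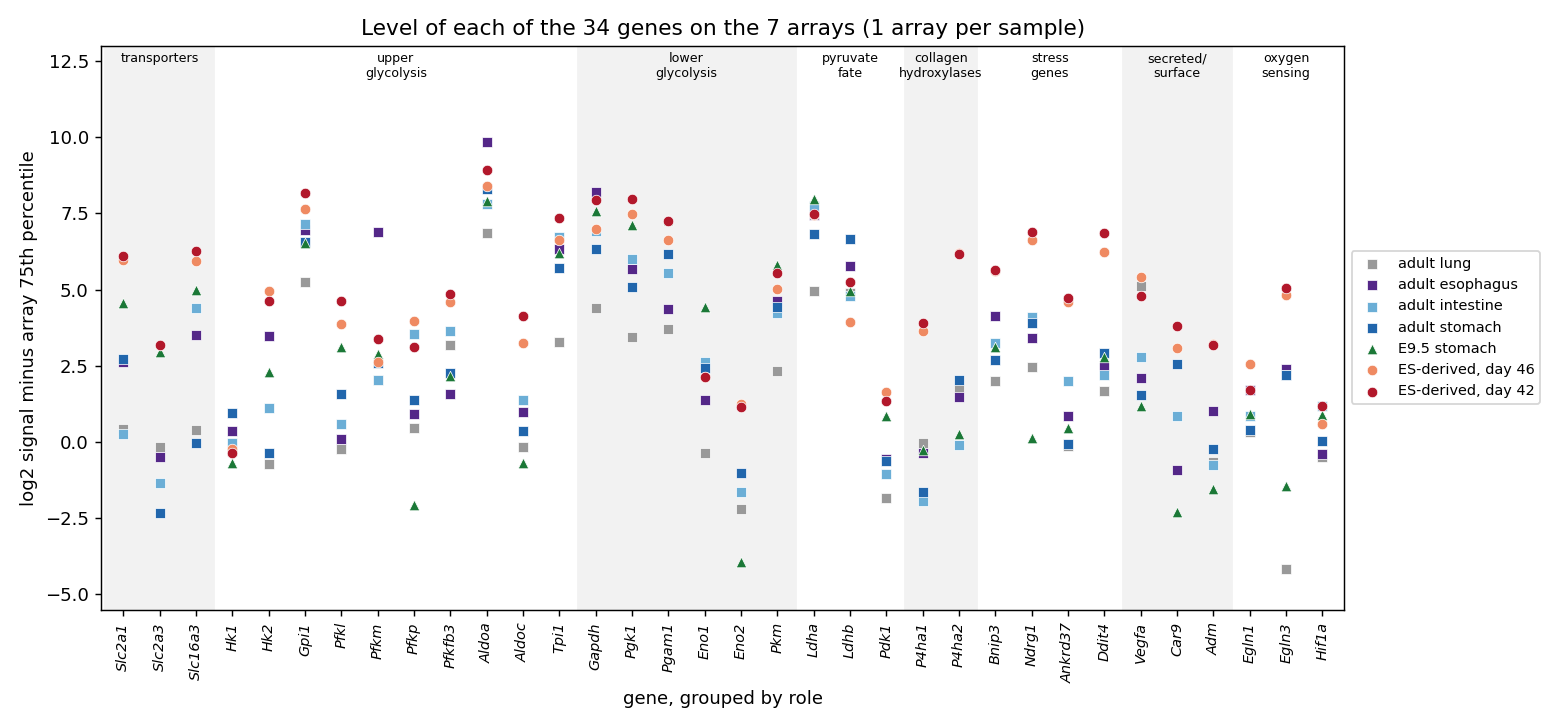
Level of each of the 34 genes (log2 signal minus the array's 75th percentile, y axis) on the 7 arrays, with genes grouped by role along the x axis and 1 point per array. Both cultures (circles) lie above all 5 tissues for P4ha1, P4ha2, Ddit4, Ndrg1, Ankrd37 and Egln3, whereas esophagus is highest for Pfkm, Aldoa and Gapdh.

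Transport across the plasma membrane begins and ends the pathway. Slc2a1, the widespread basal glucose transporter, stood at 6.10 at day 42 and 5.96 at day 46, against 4.57 in embryonic stomach, 2.71 in adult stomach, 2.64 in esophagus, 0.41 in lung and 0.27 in intestine. Slc2a3, a high-affinity glucose transporter best known from neurons, stood at 3.17 and 3.18 in the cultures, 2.95 in embryonic stomach, -0.15 in lung, -0.48 in esophagus, -1.35 in intestine and -2.33 in adult stomach. For both glucose transporters the cultures and the embryo lay above all 4 adult organs, and for Slc2a3 the embryo was 0.22 below day 42. Slc16a3, which exports lactate from glycolytic cells, stood at 6.27 and 5.92 in the cultures, 4.99 in embryonic stomach, 4.38 in intestine, 3.51 in esophagus, 0.39 in lung and -0.02 in adult stomach. Adult stomach thus had the lowest level of Slc2a3 and of Slc16a3 among the 7 arrays, and the day 42 excess over it was 45.3-fold for Slc2a3 and 78.0-fold for Slc16a3.

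In the upper part of glycolysis, isozymes of the same step differed between samples. Hexokinase phosphorylates glucose, and its inducible form Hk2 stood at 4.64 at day 42, 4.95 at day 46, 3.49 in esophagus, 2.29 in embryonic stomach, 1.12 in intestine, -0.35 in adult stomach and -0.72 in lung. The constitutive form Hk1 ran the other way against adult stomach, at -0.37 and -0.22 in the cultures and 0.95 in adult stomach, with the other 4 tissues between -0.69 and 0.35. The 5 probes of Hk1 all had lower values at day 42 than in adult stomach, by differences of -0.26 to -3.01, although the dimmest was not above background in the cultures. Hk2 in day 42 tissue was 31.8-fold above adult stomach, and Hk1 there was 2.49-fold below it.

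Phosphofructokinase commits sugar to glycolysis and comes in liver, muscle and platelet forms. Pfkl, the liver form, was at 4.62 and 3.86 in the cultures, 3.12 in embryonic stomach, 1.57 in adult stomach, 0.58 in intestine, 0.11 in esophagus and -0.25 in lung, so that both cultures exceeded every tissue. Pfkm, the muscle form, was at 6.90 in esophagus and between 2.03 and 3.40 on the other 6 arrays. Pfkp, the platelet form, stood at 3.11 and 3.96 in the cultures, 3.53 in intestine, 1.37 in adult stomach, 0.93 in esophagus, 0.46 in lung and -2.06 in embryonic stomach. The second Pfkp probe gave a difference of 1.07 for embryonic against adult stomach where the first gave -3.43, so no direction is given for that pair. Pfkfb3, which makes the allosteric activator of phosphofructokinase, reached 4.85 and 4.61 in the cultures, 3.64 in intestine and 3.18 in lung, with adult stomach at 2.26. Its other 2 probes did not keep this order: 1 placed the lower culture 0.29 above the highest tissue, and the other placed intestine (0.07) and lung (-0.34) above both cultures (-1.04 and -1.47), with day 42 0.56 above adult stomach.

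The remaining upper steps showed smaller gaps except for 1 aldolase. Aldoc, the aldolase best known from brain, was at 4.13 and 3.25 in the cultures, 1.38 in intestine, 0.97 in esophagus, 0.35 in adult stomach, -0.17 in lung and -0.70 in embryonic stomach. Aldoa, the aldolase of muscle and most tissues, was at 9.86 in esophagus, 8.94 at day 42, 8.42 at day 46 and 6.86 to 8.29 in the other tissues, and its second probe kept esophagus highest at 9.47. Gpi1, the glucose phosphate isomerase, was highest at day 42 (8.18) and lowest in lung (5.24), with day 46 at 7.66 and intestine at 7.16. Triose phosphate isomerase, Tpi1, had day 42 at 7.34, intestine at 6.71, day 46 at 6.62 and lung at 3.28, so the cultures did not stand clear of the tissues.

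In the lower part of glycolysis, where ATP is recovered, both cultures lay above every tissue for Pgk1 and Eno2 but not for the other listed genes. Pgk1, the first ATP-yielding enzyme, was at 7.99 and 7.50 in the cultures, 7.11 in embryonic stomach, 6.0 in intestine, 5.68 in esophagus, 5.09 in adult stomach and 3.46 in lung. Gapdh, often used as a reference gene, was at 8.19 in esophagus, 7.95 at day 42, 7.59 in embryonic stomach, 6.99 at day 46, 6.92 in intestine, 6.32 in adult stomach and 4.40 in lung.

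Enolase splits by isozyme as aldolase does. Eno2, the neuronal enolase, was at 1.15 and 1.24 in the cultures, -1.0 in esophagus, -1.02 in adult stomach, -1.65 in intestine, -2.20 in lung and -3.94 in embryonic stomach. Eno1, the enolase of most tissues, was instead highest in embryonic stomach at 4.42, with intestine at 2.61, adult stomach at 2.44, the cultures at 2.14 and 2.13, esophagus at 1.37 and lung at -0.36. The cultures and the embryo thus lay at opposite ends for Eno2, and the cultures were within the adult range for Eno1. Embryonic stomach was also highest for the mutase Pgam1 (7.27, with day 42 at 7.25) and for the pyruvate kinase gene Pkm (5.82, with day 42 at 5.55), gaps that are within the spread between probes.

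Pyruvate is either reduced to lactate or burned in mitochondria. Ldha, the lactate dehydrogenase subunit that favours lactate, was at 7.99 in embryonic stomach, 7.76 in intestine, 7.49 and 7.44 in the cultures, 7.45 in esophagus, 6.83 in adult stomach and 4.96 in lung. Its second probe put day 42 highest at 7.18, with embryonic stomach at 6.94 and adult stomach at 5.31, so the order of the top arrays depends on the probe. Ldhb, the subunit of oxidative tissues, ran the other way, at 6.65 in adult stomach, 5.76 in esophagus, 5.24 at day 42, 4.79 to 4.96 in the other 3 tissues and 3.94 at day 46. Pdk1, the kinase that shuts off pyruvate dehydrogenase, was at 1.35 and 1.65 in the cultures and 0.84 in embryonic stomach, against -0.57 in esophagus, -0.62 in adult stomach, -1.06 in intestine and -1.85 in lung.

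Measured from the lower culture to the highest tissue, the widest gaps were in the alpha subunits of the collagen prolyl hydroxylase. The enzyme needs oxygen and stabilises the collagen triple helix. P4ha2 stood at 6.17 at day 42 and 6.21 at day 46, against 2.03 in adult stomach, 1.75 in lung, 1.49 in esophagus, 0.25 in embryonic stomach and -0.10 in intestine. P4ha1 stood at 3.90 and 3.64, against -0.02 in lung, -0.26 in embryonic stomach, -0.36 in esophagus, -1.65 in adult stomach and -1.93 in intestine. The second P4ha1 probe placed the lower culture 3.59 above the highest tissue, next to 3.66 for the first. Their promoters, shown above, hold 3 motif matches each. Those of Pgam1 and Hif1a, for which the cultures did not both exceed every tissue, also hold 3 each, and that of Eno2 holds 0.

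The stress genes were also high in the cultures. Ddit4, an inhibitor of mTORC1 signalling, stood at 6.86 and 6.22 in the cultures and between 1.68 and 2.93 in the 5 tissues. Ndrg1, a stress-responsive gene of differentiating epithelia, stood at 6.90 and 6.63, against 4.09 in intestine, 3.90 in adult stomach, 3.42 in esophagus, 2.45 in lung and 0.14 in embryonic stomach. Ankrd37, an ankyrin repeat protein known as a hypoxia target, stood at 4.74 and 4.60, with intestine at 2.0 and the other 4 tissues between -0.12 and 0.85. Bnip3, which promotes removal of mitochondria, stood at 5.63 and 5.61, against 4.12 in esophagus, 3.26 in intestine, 3.13 in embryonic stomach, 2.67 in adult stomach and 2.01 in lung. For all 4 genes both cultures lay above every tissue, as they did for 10.0% of 15873 genes.

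Secreted and surface products were less uniform. Adm, the vasodilator peptide adrenomedullin, stood at 3.18 and 3.21 in the cultures and 1.02 in esophagus, with the other 4 tissues between -1.54 and -0.23. Vegfa, the main endothelial growth factor, stood at 4.78 and 5.43 in the cultures and 5.12 in lung, against 2.79 in intestine, 2.09 in esophagus, 1.55 in adult stomach and 1.18 in embryonic stomach. Its other 2 probes differed on lung, since 1 placed both cultures above lung (4.66 and 4.78 against 3.77) and the other placed lung highest (4.99 against 3.85 and 3.07). Car9, a carbonic anhydrase of the cell surface, stood at 3.81 and 3.09 in the cultures and 2.57 in adult stomach, against 0.86 in intestine, -0.91 in lung, -0.93 in esophagus and -2.30 in embryonic stomach.

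Oxygen sensing genes, finally, differed in size of gap. Egln3, a prolyl hydroxylase that is itself induced by low oxygen, stood at 5.06 and 4.82 in the cultures, 2.39 in esophagus, 2.21 in adult stomach, 2.19 in intestine, -1.46 in embryonic stomach and -4.18 in lung. Egln1, the main hydroxylase of the pathway, stood at 1.71 and 2.54 in the cultures, 1.70 in esophagus and 0.33 to 0.91 in the other 4 tissues, so day 42 and esophagus were equal within probe error. Hif1a, the oxygen-regulated alpha subunit, stood at 1.19 at day 42, 1.18 in intestine, 0.90 in embryonic stomach, 0.58 at day 46 and -0.51 to 0.03 in the other 3. Hif1a protein is set mainly by degradation, and protein was not measured here.

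Against adult stomach, the organ that the culture is named for, 28 of the 34 genes were at least 2-fold higher at day 42, against 20.2% of 14819 genes, and 2 were at least 2-fold lower, against 22.6%. The median difference of the 34 was 2.38, next to 0.00 for all genes, and 31 lay above 0, against 49.0%. At the 4-fold level 18 were higher (7.39%) and none was lower (10.3%). The 2 lower genes were Hk1 (-1.32) and Ldhb (-1.41). All 12 hypoxia response genes were among the 28 (median 3.12), as were 16 of the 22 glycolysis and transport genes (median 1.68). At day 46, 22 genes were higher (19.4% of all genes) and the same 2 were lower (22.1%), with a median of 2.32 and 31 above 0 (49.7%). At the 4-fold level 21 were higher (6.86%) and 1, Ldhb, was lower (9.91%). The 2 comparisons share the adult stomach array. Among called genes with further probes, 12 of 12 further probes had the same direction at each time.

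**Figure D2:**
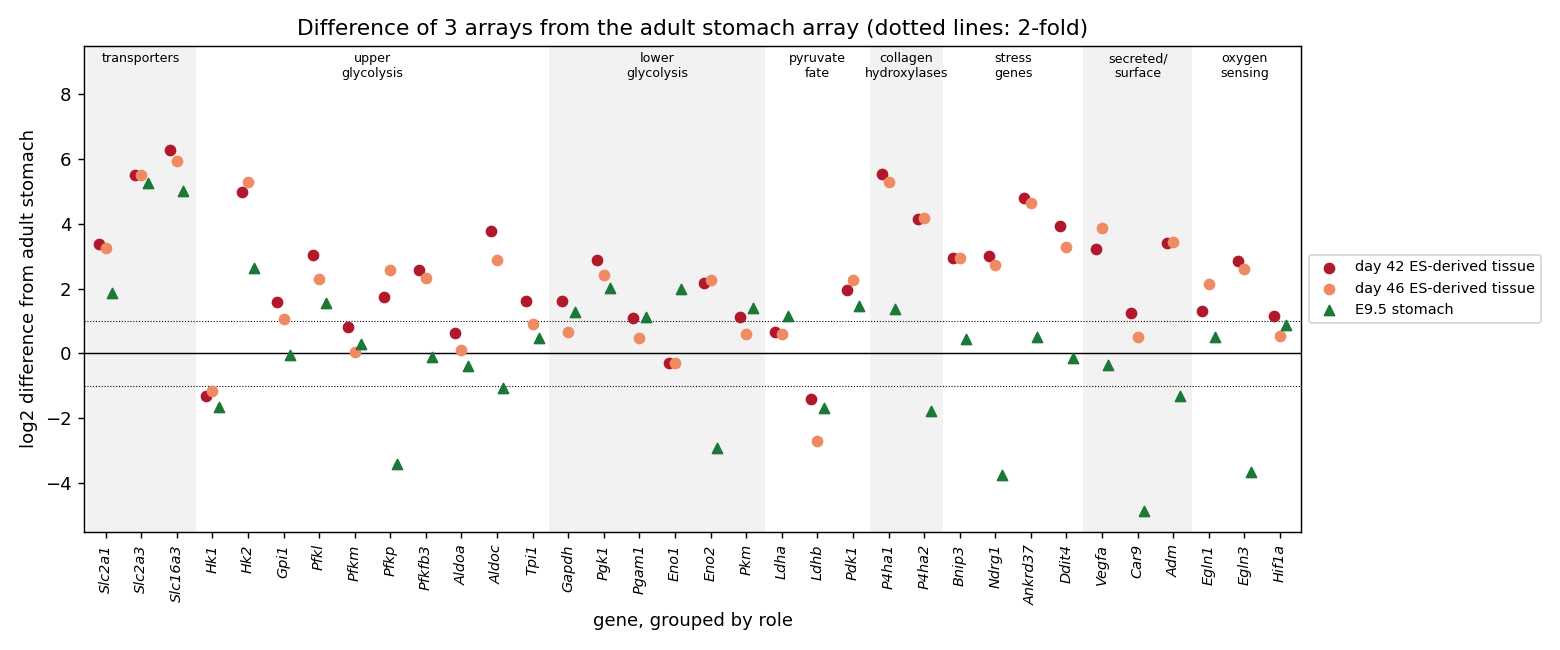
Difference from adult stomach (log2 scale, y axis) for each of the 34 genes (x axis, grouped by role), with 1 point each for day 42, day 46 and embryonic stomach and dotted lines at 2-fold. The cultures lie above 0 for 31 of the 34 genes at each time, whereas the embryonic stomach lies above 0 for 19.

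The embryonic stomach was above adult stomach for transporters and most lower glycolysis genes, but not for most of the 12 genes classed here as hypoxia response. Transporters and glycolytic enzymes can be hypoxia targets too, so these classes do not part hypoxia targets from other genes. Against adult stomach, 13 of the 34 genes were at least 2-fold higher in the embryo, against 27.3% of 15090 genes, and 10 were at least 2-fold lower, against 29.8%, so the share that was lower is close to the background and the share that was higher is somewhat above it. At the 4-fold level 4 were higher (11.5%) and 5 lower (18.1%). Pfkp, whose probes disagree in direction here, is among the lower genes in each of these counts and in the count by role, and 7 of 8 further probes of the called genes had the same direction as the first. By role they divided: 12 of the 22 glycolysis and transport genes were higher and 5 lower (median 1.14), whereas 1 of the 12 hypoxia response genes was higher and 5 were lower (median -0.25). All 3 transporters were higher, by 1.85 for Slc2a1, 5.28 for Slc2a3 and 5.01 for Slc16a3, as were 5 of the 6 lower glycolysis genes. The lower hypoxia genes were Car9 (-4.87), Ndrg1 (-3.76), Egln3 (-3.67), P4ha2 (-1.78) and Adm (-1.31), and the 1 higher gene was P4ha1 (1.38). The difference between the roles was not tested.

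Set directly against the embryo, day 42 was at least 2-fold higher for 21 genes (28.1% of 14695 genes) and lower for Eno1 alone (-2.28, with a background of 25.9%), with a median of 1.52. The hypoxia response genes again carried the larger gaps, with 10 of 12 higher and a median of 4.22, against 11 of 22 and a median of 0.95 for glycolysis and transport. The widest gap was 109-fold for Ndrg1, followed by 91.6-fold for Egln3. Day 46 was higher for 18 genes (28.7% of all genes) and lower for 2 (26.4%).

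**Figure D3:**
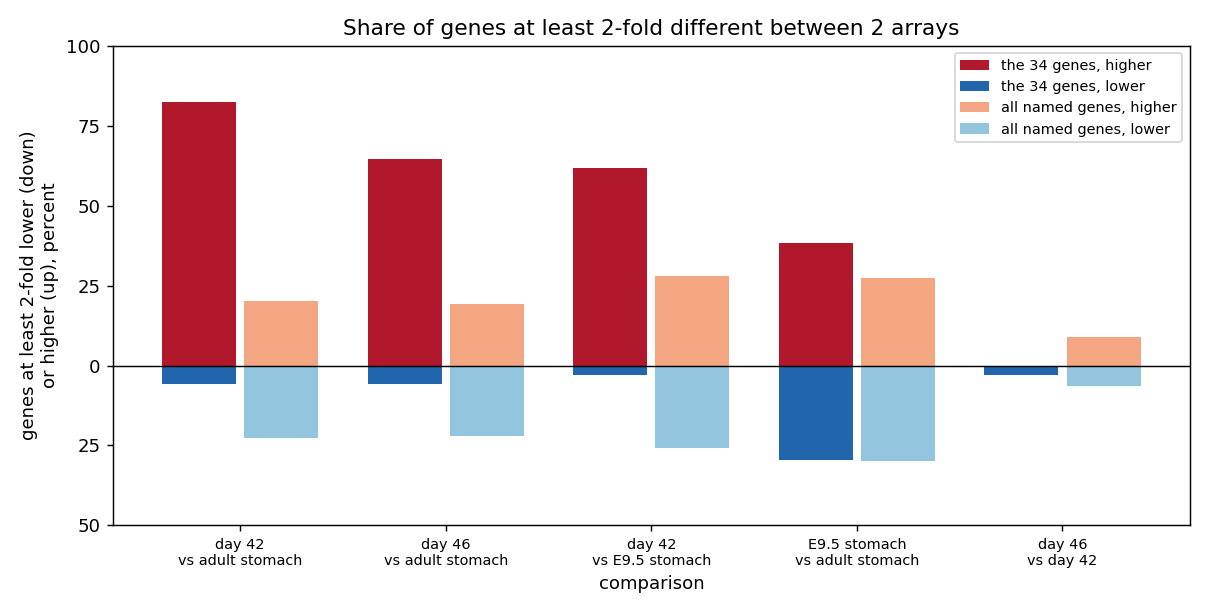
Share of genes (percent, y axis) at least 2-fold higher (bars up) or lower (bars down) in each of 5 comparisons, for the 34 genes and for all named genes measured in it. The share of the 34 genes that was higher exceeds that of all genes in both cultures against adult stomach, and is far closer to it in embryonic against adult stomach.

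Moving the culture from the FGF10, Wnt3a, Noggin and R-spondin1 medium to Shh and Bmp4 was accompanied by small differences in these genes. By their brightest probes, none of the 34 was at least 2-fold higher at day 46 than at day 42 (9.00% of 15453 genes were), and only Ldhb was at least 2-fold lower (-1.29, with a background of 6.47%). None was 4-fold lower (0.764%). The median difference was -0.26, and 10 of the 34 genes lay above 0, against 43.4% of all genes. The extremes upward were Pfkp (0.86), Egln1 (0.84) and Vegfa (0.65), and downward, after Ldhb, Gapdh (-0.96). Quantile normalization turned the median to 0.11, so no direction is given for the group, and other probes gave -0.28 for Pfkp, 0.12 and -0.78 for Vegfa and 1.42 for Egln1. With the mean over probes Egln1 was past 2-fold (1.13) and Vegfa lay just below 0.

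Most of the 34 genes were also higher in the cultures than in the other adult organs, in comparisons that share the 2 culture arrays. Against lung, 31 of the 34 genes were at least 2-fold higher at day 42 (25.8% of all genes) and 30 at day 46 (20.7%), with none lower (21.4% and 18.6%). Against intestine 26 were higher at day 42 (26.9%) and 21 at day 46 (23.9%), again with none lower (25.6% and 24.1%). Against esophagus 25 were higher at day 42 (23.2%) and 22 at day 46 (21.4%), with 1 lower (21.9%) and 4 lower (20.6%).

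Among the adult organs, which shared a slide, esophagus and lung stood out. In esophagus 5 genes were at least 2-fold above each of the other 3 organs (5.01% of 15160 genes were), namely Hk2, Pfkm, Aldoa, Gapdh and Adm. Intestine had 3 (9.80%), Pfkp, Ankrd37 and Hif1a, lung had 1 (8.30%), Vegfa, and stomach had 1 (4.43%), Car9. Lung was at least 2-fold below each other organ for 8 genes (5.11%), Gpi1, Tpi1, Gapdh, Pgk1, Eno1, Pkm, Ldha and Egln3, a count made after the values were seen, and was the lowest adult organ for 24 of the 34 (29.9%). The skeletal muscle list had all 8 genes above background in esophagus at a summed level of 11.49, against 3.37 to 4.98 on the other 6 arrays, and its part in the esophagus values was not tested.

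Other genes of the same pathways were read in 7 further lists, whose counts at day 42 against adult stomach stand beside 20.2% higher and 22.6% lower over all genes. Of 30 other hypoxia targets, 18 were at least 2-fold higher at day 42 than in adult stomach and 1 was lower (median 1.39), among them the collagen cross-linking oxidase Lox (7.55), the secreted glycoprotein Stc1 (3.70) and the lysyl hydroxylase Plod2 (3.66). The lower gene was the VEGF receptor Flt1 (-2.22). Both cultures were at least 2-fold above all 5 tissues for 8 of those 30, against 2.38% of all genes. Of 18 other glycolysis genes measured, 8 were higher and 5 lower (median 0.61), with Hkdc1 at 6.02 and Pgam2 at 4.17 above and the monocarboxylate transporter Slc16a7 at -4.83 and the insulin-responsive glucose transporter Slc2a4 at -4.52 below. In the core of oxygen sensing, 1 of 6 genes was higher (Egln2, 1.16) and 1 lower (Epas1, -1.24). Epas1 was not above background at day 42, so its difference is taken from the bound of that array. These shares are near those over all genes, as is that of the 5 lower glycolysis genes.

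Lists on the oxidative side of pyruvate use leaned the other way in level, although the pyruvate entry list mixes enzymes with their inhibitors. None of the 9 genes of pyruvate entry into mitochondria and its control was at least 2-fold higher at day 42 than in adult stomach. The other direction held 6 (median -1.32), among them the pyruvate carrier subunit Mpc2 (-1.84) and the dehydrogenase subunit Dlat (-1.58). These 6 also include Pdk2 (-2.23) and Pdk4 (-1.32), kinases that, like Pdk1, shut off pyruvate dehydrogenase. None of 11 tricarboxylic acid cycle genes was higher and 7 were lower (median -1.23, against 22.6% of all genes), with Ogdh at -3.14 and Idh3a at -2.10. At day 46 all 11 were lower (median -1.74, against 22.1%). In embryonic against adult stomach, 4 of the 11 were lower, near the 29.8% of all genes. Of the 9 pyruvate entry genes, 5 were lower there and 1 was higher (27.3% of all genes), with a median of -1.02. Day 42 set directly against the embryo had 3 of those 9 higher (28.1%) and 3 lower (25.9%), with a median of -0.33. Of the 6 pentose phosphate genes measured, none passed 2-fold in either direction at day 42 against adult stomach (median -0.35). Of 11 gluconeogenesis and glycogen genes, 5 were higher and 2 lower (median -0.04), with Pck2 at 3.37, Gbe1 at 3.15 and Gys1 at 2.80 above and Fbp2 at -3.03 below, and the share that was lower is near that of all genes.

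**Figure D4:**
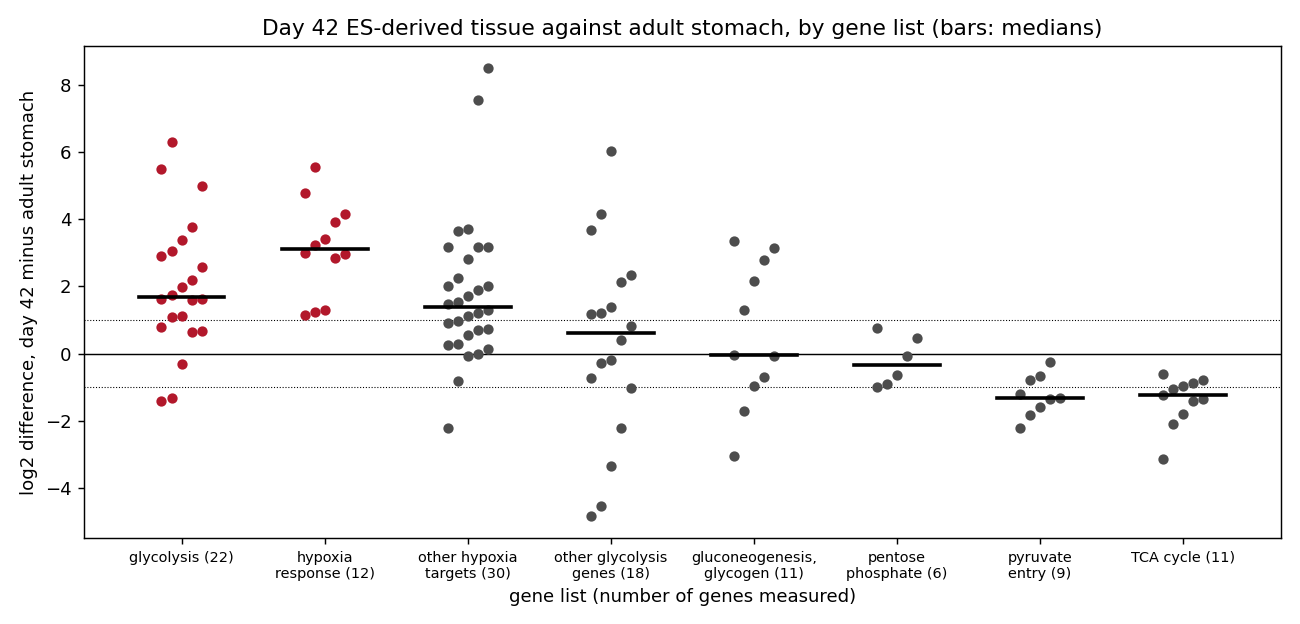
Difference of day 42 from adult stomach (log2 scale, y axis) for single genes (points) with the median of each list (bars), for the 34 genes in their 2 classes and for 6 further pathway lists, with dotted lines at 2-fold. The medians of pyruvate entry (-1.32) and of the tricarboxylic acid cycle (-1.23) lie below 0 at day 42 against adult stomach, and that of the other hypoxia targets (1.39) lies above it.

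Markers of other cell types also differed between the cultures and the tissues. The summed level of 7 erythroid genes was -2.57 at day 42 and -1.68 at day 46, against 5.15 to 8.90 in the 5 tissues, and Hba-x was not above background in either culture. The summed level of 6 endothelial genes was -1.16 and -1.30, against 0.93 to 6.15 in the tissues, with Pecam1 and Tie1 not above background at day 42. The 4 parietal genes stood at -0.58 and -1.70 in the cultures, against 10.42 in adult stomach. The 5 macrophage genes stood at 8.62 and 8.22 in the cultures. The tissues stood at 8.84 in lung, 7.35 in esophagus, 6.48 in intestine, 5.63 in adult stomach and -2.02 in embryonic stomach. Lyz2 was the brightest of them in lung (8.81) and at day 42 (7.98). Both cultures were at least 2-fold above all 5 tissues for 3 of the 5, against 2.38% of all genes. The 8 hepatocyte genes stood at 7.84 and 7.17 in the cultures. The tissues stood at 8.56 in intestine, 6.61 in lung, 5.42 in adult stomach, 2.15 in esophagus and -1.66 in embryonic stomach. The brightest were Apoa1 (8.28) and Apob (5.77) in intestine and Hp (6.60) in lung, where Apoa1, Apob and Ttr were not above background. Both cultures were at least 2-fold above all 5 tissues for 3 of the 8, against 2.38% of all genes. The 7 cardiac muscle genes stood at 8.18 and 7.20 in the cultures. Adult stomach stood at 6.15, embryonic stomach at 4.30 and the other tissues at up to 7.36. At day 42 against adult stomach, 5 of the 7 were at least 2-fold higher (20.2% of all genes). The other 2 were at least 2-fold lower (22.6%), and the median was 6.78. The 7 neural genes stood at 1.95 and 1.5, against 4.65 in embryonic stomach and 0.93 to 2.99 in the adult organs. The 4 adipocyte genes stood at 4.85 and 3.79, against 7.22 in intestine, 5.03 in esophagus, 3.51 in adult stomach, 1.73 in lung and -3.18 in embryonic stomach. The 7 proliferation genes stood at 2.40 and 0.94 in the cultures, 2.45 in adult stomach and 6.93 in embryonic stomach. The part of these cell types in the values above was not tested.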

How the data were processed

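RNA of 7 samples was hybridised to Agilent one-colour mouse arrays, 1 per group. The scanner files were made with Agilent Feature Extraction (10.5 per the submitters' processing notes, and 10.7.3.1 for both cultures and 10.5.1.1 for the others per the file headers). The main values are the deposited intensity column of background-subtracted processed signal, per the file headers. The authors' deposited value table holds log2 values scaled to the 75th percentile per the labels, and correlated with the rescaled scanner values at 0.9991 or more on each array.

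Control spots and outlier spots were left out, no spot was saturated, spots of a probe were averaged, and each array's 75th percentile was subtracted from log2 signals. Of 41174 probes, 24375 were named by RefSeq accession and 57 by symbol, and 16742 were left unnamed. A gene took its brightest probe by mean over the arrays. A probe not well above background took the bound of its array, and genes below background on both sides were not compared.

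Counts past 2-fold are descriptions, set beside the share of all named genes. The members and lists were chosen with earlier results of these data known. All members may be named, and of each further list at most the 4 genes with the largest difference, or all that passed 2-fold where 5 or fewer did. Some genes that this rule would name are not reported here. Alternatives were median centring, quantile normalization, normexp background correction on the median signal (offset 50, limma 3.58.1 in R 4.3.3), the authors' table, other background filters, the mean over probes and a 4-fold threshold. The counting steps were tested on simulated data (Python 3.11.15, pandas 2.3.3, numpy 2.4.6).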

Additional observations from a re-analysis of the deposited data

How the results depend on the processing

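No gene at least 2-fold apart in the 5 comparisons changed direction under the 7 alternatives run (3 scalings or background corrections, the authors' table, 2 background filters and the mean over probes). Single probes were not run as an alternative, and those of Pfkp disagree for embryonic against adult stomach (-3.43 and 1.07). The number of genes at least 2-fold above all tissues in both cultures was 12 under 6 settings, 13 with normexp and 15 with quantile normalization. For day 46 against day 42, the count higher was 3 with quantile normalization and 1 with the mean over probes (main 0), the count lower was 2 with normexp, and the median was 0.11 with quantile normalization (main -0.26). For day 46 against adult stomach, the median was 2.53 with quantile normalization and 2.51 with normexp. With median centring, the median was 0.83 for embryonic against adult stomach and 1.23 for day 42 against the embryo, while the median of all genes was at 0.33 and -0.32. Adult stomach was the highest organ for 2 genes with quantile normalization. The causes were not tested.

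A 4-fold threshold left 18 higher and 0 lower at day 42 against adult stomach, 1 lower at day 46 against adult stomach, 4 higher and 5 lower in embryonic against adult stomach, and 0 lower at day 46 against day 42. It left 2 genes in esophagus, 0 in stomach and 1 in intestine as highest adult organ, and 2 lowest in lung, the last being a result added after seeing the data. No paired analysis was possible because each group holds 1 array. All 34 genes were above background on all 7 arrays. The single array per group, the separate slides, the different software version of the cultures, the disagreement between probes and the day 46 spike-in difference of -2.93 limit these values.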
